A study of Homo sapiens with 8 samples.

Results

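The 85 genes described here encode the proteins of the cytosolic ribosome, and they were followed through 8 RNA-seq libraries from 2 established triple-negative breast cancer (TNBC) cell lines, MDA-MB468 and BT549. Members were chosen by name and place alone. A gene belonged if the deposited count table listed it as protein coding on chromosomes 1 to 22 or X under an RPL or RPS symbol, or as RPLP0, RPLP1, RPLP2 or RPSA, and if it was neither an S6 kinase nor a processed copy. That rule took 85 of the 55679 gene identifiers in the table, 53 of the large ribosomal subunit and 32 of the small one. The rule itself uses no measured value, but the group was taken up with earlier results of these data known.

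Each line was sequenced in 4 conditions with 1 library per condition. Parental cells and cells made resistant by chronic exposure (CE) to rising Acetalax concentrations, up to 40 μmol/L, were each collected untreated and after 6 hours in 1 μmol/L Acetalax. Acetalax (oxyphenisatin acetate) is a former laxative, and the CE cells had been kept free of the drug for 2 weeks before the experiment. The study calls the CE cells resistant clones, and each line has 1 such derivative, so a CE difference is a difference between 1 pair of cell populations per line. With no replicate inside a condition, tests used the other line, the other state or the other treatment as repeats, and p-values measure the spread between these pairs only.

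The ribosome is the machine that translates mRNA into protein. Its small subunit reads the mRNA, its large subunit joins the amino acids, and each subunit carries ribosomal RNA and a fixed set of proteins. Mammalian mRNAs for nearly all of these proteins begin with a C followed by a run of pyrimidines, the 5′ terminal oligopyrimidine (TOP) motif, through which mTOR signalling controls their translation as a group. Because the proteins are needed in equal numbers, their genes are often used as an example of a set expressed together, although they are scattered over the genome. The members lie on 21 chromosomes, with 12 on chromosome 19, 9 on chromosome 3 and 4 on chromosome 8.

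Libraries held between 42261122 and 54241728 counts assigned to genes. Counting error (95% Wilson interval, which covers counting error only) was under 5% of the value in every library for 75 members, and reached 169% for RPL3L, 130% for RPL10L and 64.9% for RPS17L, which had few counts. Epithelial marker genes summed to between 5563 and 8210 CPM (the count scaled to library size) in the MDA-MB468 libraries and to at most 93.2 CPM in BT549, whereas mesenchymal markers summed to between 5725 and 10911 CPM in BT549 and to at most 80.5 CPM in MDA-MB468. Leukocyte markers reached at most 47.3 CPM and erythroid markers at most 0.0206 CPM. These bulk values cannot tell fewer transcripts per cell from a change in the make-up of the culture.

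The transcript starts of the members are shown first, because they are what the group shares beside its name. RefSeq starts on GRCh38.p14 were matched by symbol for 68 of the 85 members. A C at the annotated first base followed by at least 4 pyrimidines was present at a start of 47 of these 68 members (69.1%), against 842 of 13914 other protein-coding genes (6.05%) and 5 of 65 mitochondrial ribosomal protein genes (7.69%). When the C could lie up to 5 bases before or after the annotated start, the counts were 55 of 68 members (80.9%), 3908 of 13914 other genes (28.1%) and 14 of 65 mitochondrial ribosomal protein genes (21.5%). Only the transcribed strand was searched, for C followed by C or T, and a gene was counted once however many of its starts held a run. The sequences below give 10 bases before the start and 20 bases from it, 5′ to 3′, with the C and its pyrimidine run in capitals. They were chosen because the results below turn on these genes, and 3 pairs of close relatives are set side by side to show where they differ.
RPS12 (chr6:132814559-132814588, plus strand): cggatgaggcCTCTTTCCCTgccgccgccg
RPL37A (chr2:216498834-216498863, plus strand): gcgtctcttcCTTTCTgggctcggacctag
RPL39 (chrX:119791611-119791640, minus strand): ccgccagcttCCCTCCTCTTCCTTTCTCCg
RPS6 (chr9:19380217-19380246, minus strand): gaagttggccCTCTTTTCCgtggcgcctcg
RPL7A (chr9:133348208-133348237, plus strand): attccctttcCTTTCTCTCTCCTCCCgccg
RPL12 (chr9:127451387-127451416, minus strand): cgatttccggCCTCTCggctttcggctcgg
RPL35 (chr9:124861938-124861967, minus strand): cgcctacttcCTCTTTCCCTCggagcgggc
RPS3 (chr11:75399508-75399537, plus strand): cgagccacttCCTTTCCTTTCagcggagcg
RPLP2 (chr11:809957-809986, plus strand): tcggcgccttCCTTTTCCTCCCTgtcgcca
RPL28 (chr19:55385922-55385951, plus strand): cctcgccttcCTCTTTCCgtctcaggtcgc
RPS18 (chr6:33272065-33272094, plus strand): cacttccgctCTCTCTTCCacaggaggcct
RPL22 (chr1:6199576-6199605, minus strand): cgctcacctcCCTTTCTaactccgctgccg
RPL22L1 (chr3:170870176-170870205, minus strand): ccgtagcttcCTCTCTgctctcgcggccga
RPS27 (chr1:153990752-153990781, plus strand): cgctttcgctCCTTTCCggcggtgacgacc
RPS27L (chr15:63157458-63157487, minus strand): gatgccgagcgcagatcgcttgcagcttgc
RPL26 (chr17:8383174-8383203, minus strand): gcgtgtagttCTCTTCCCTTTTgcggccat
RPL26L1 (chr5:172958719-172958748, plus strand): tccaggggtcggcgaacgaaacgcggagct
RPL22 and RPL22L1 both start with such a run. RPS27 and RPL26 have one, and the relatives RPS27L and RPL26L1 have none within 5 bases of these starts. The 13 members with a start in the table but no run near it were RPL6, RPL7L1, RPL9, RPL10L, RPL15, RPL17, RPL26L1, RPL27, RPS4X, RPS15, RPS26, RPS27L and RPS29.

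Together, the 85 genes took between 4.24% and 4.92% of each library's counts. In MDA-MB468 parental cells their share was 4.68% without drug (95% Wilson interval 4.67% to 4.68%) and 4.26% after Acetalax (4.25% to 4.26%). The MDA-MB468 CE libraries gave 4.47% and 4.28% in the same order. BT549 moved the other way, with 4.52% and 4.92% in parental cells and 4.24% and 4.64% in CE cells. So the share was lower after Acetalax in both MDA-MB468 pairs and higher in both BT549 pairs, and the shift was as large in the BT549 CE pair as in the BT549 parental pair (0.405 percentage points in each). Large and small subunit genes took part alike, as the plot of shares shows. The share of counts on the mitochondrial chromosome, which is part of the same total, was 10.0% and 7.89% in the MDA-MB468 parental pair, 9.98% and 8.87% in the MDA-MB468 CE pair, 7.32% and 7.29% in the BT549 parental pair and 5.08% and 4.00% in the BT549 CE pair. Measured against nuclear protein-coding counts alone, the members went from 5.28% to 4.69% and from 5.05% to 4.77% in MDA-MB468, and from 4.94% to 5.38% and from 4.52% to 4.89% in BT549.

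**Figure D1:**
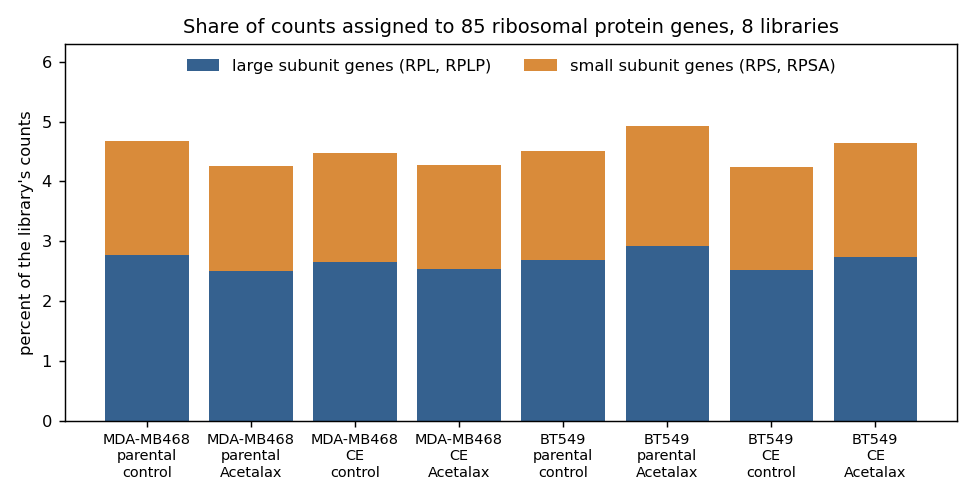
Percent of each library's counts assigned to the 85 ribosomal protein genes, stacked by subunit, in the 8 libraries (1 library per bar). The share falls from 4.68% to 4.26% and from 4.47% to 4.28% after Acetalax in MDA-MB468 and rises from 4.52% to 4.92% and from 4.24% to 4.64% in BT549.

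Levels between genes were compared as FPKM (fragments per kilobase of exon, scaled for library size), computed from the counts and the merged exon length of each gene. The median over the members of the mean level was 156 FPKM, and 54 members had a mean above 100 FPKM. RPS12 was highest at a mean of 1163 FPKM (range 944 to 1467 over the 8 libraries), followed by RPL8 at 746, RPS18 at 682 and RPS2 at 590. RPS12 and RPS18 are small subunit proteins and RPL8 lies close to the catalytic centre of the large subunit. At the other end, RPL3L had a mean of 0.0779 FPKM, RPS17L 0.0863, RPL10L 0.245, RPS10 0.977 and RPL36A 2.49. RPL3L and RPL10L are known for striated muscle and testis, respectively. RPS10, RPL17 and RPL36A are constitutive proteins whose rows overlap read-through genes (RPS10-NUDT3, RPL17-C18orf32 and RPL36A-HNRNPH2), each of which had 0 counts. Reads that map to more than 1 place were not counted, and 74 members have processed copies in the table, 844 in all. The copies of RPS10 held 104% as many counts as RPS10 itself, so its level is uncertain. The overlap with read-through genes leaves the levels of RPL17 and RPL36A uncertain as well, and its effect on the counts was not tested. Merged exons include long rare transcripts: with the canonical transcript as the length, an alternative chosen after these lengths were seen, RPS18 led at 2280 FPKM, followed by RPL8 at 1505, RPS2 at 1491 and RPS12 at 1477. Neighbours in that order had overlapping ranges: 1959 to 2737 FPKM for RPS18 and 782 to 2390 FPKM for RPL8.

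Most members varied little within a line. Over all 8 libraries the highest CPM was under 2 times the lowest for 62 members, with a median ratio of 1.56. RPS26 was steadiest at 1.13, and RPL4 and RPL27 followed at 1.14 and 1.15. The widest ratios were 10.3 for RPL3L and 5.37 for RPL10L, both with few counts, and then 3.85 for RPS23, 3.33 for RPS20, 3.19 for RPL7 and 3.06 for RPL8. Those last 4 genes were high in BT549 and low in MDA-MB468.

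The first question is whether 6 hours of Acetalax changed the members over all 4 backgrounds (the parental and CE cells of each line). None of the 85 members passed the threshold (edgeR quasi-likelihood test, Benjamini-Hochberg adjusted p under 0.05 over 19693 genes), where 5.0% of all genes tested did (2.72% higher and 2.27% lower). At an unadjusted p under 0.05 there was 1 member, RPS10, against 28.0% of all genes, and DESeq2 called none either. The median difference of the members was 0.12 on the log2 scale, beside −0.04 for all genes, and 81 members lay above 0. Scaling by total counts in place of the trimmed mean of M values (TMM) moved the median of all genes to −0.13 and left 59 members above 0. When members were ranked by the smallest of their 4 pair differences, all in 1 direction, RPS10 came first at 0.47 ± 0.18 (SE, 4 pairs, edgeR adjusted p = 0.134), and it lay between 1.68 and 3.56 CPM throughout. After it came RPL26 (0.16 ± 0.10), RPL21 (0.19 ± 0.09), RPS13 (0.19 ± 0.09) and RPL36AL (0.18 ± 0.09), with edgeR adjusted p between 0.207 and 0.307. Within parental cells no gene of any kind passed with edgeR, and 0 members had an unadjusted p under 0.05 against 8.68% of all genes. Within CE cells no gene passed either, and 1 member had an unadjusted p under 0.05 (11.7% of all genes, 5.72% higher and 6.02% lower). It was RPL7L1, a relative of RPL7 that works in ribosome assembly, at 0.35 ± 0.14 (edgeR adjusted p = 0.418). RPL22L1 stood at 0.48 ± 0.22 there and RPL17 at 0.35 ± 0.27. The difference between the CE and the parental response gave no call either, with 0 members at an unadjusted p under 0.05 against 0.462% of genes, and DESeq2 called no member in these comparisons.

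Split by line, the responses went apart. The median of the members was −0.06 in MDA-MB468 parental cells, where 72 of 85 were lower, and 0.02 in the CE cells of that line, where 33 were lower. It was 0.20 in BT549 parental cells, where 78 were higher, and 0.29 in BT549 CE cells, where 84 were higher. All genes tested had medians of −0.05, −0.03, 0.02 and −0.05 in the same order. The 2 subunits moved together: in BT549 CE cells the median was 0.29 for the large subunit and 0.30 for the small one. In the plot of the Acetalax differences by pair, the members form a narrow band that sits near 0 in MDA-MB468 and above the median of all genes in BT549.

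**Figure D2:**
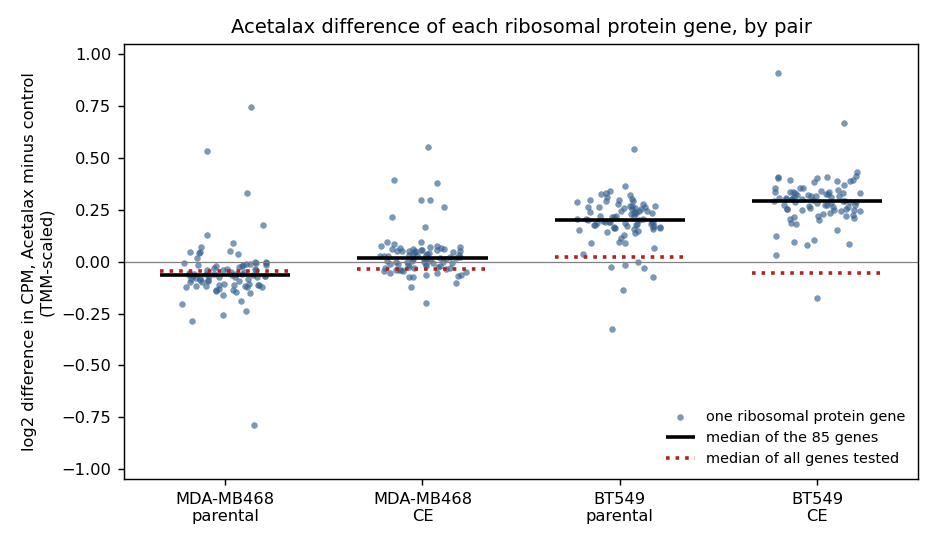
Log2 difference in TMM-scaled CPM between Acetalax and control for each of the 85 ribosomal protein genes (points) in the 4 pairs, with the median of the members (black) and of all 19693 genes tested (dotted). Member medians are −0.06 and 0.02 in MDA-MB468 and 0.20 and 0.29 in BT549.

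The difference between the lines in their Acetalax response was tested gene by gene. It passed the threshold for no member, with 1.78% of all genes called (0.533% higher and 1.25% lower in BT549) and no member called by DESeq2. At an unadjusted p under 0.05, 41 members were higher in BT549 and none was lower, where 6.9% of all genes were higher and 10.4% lower. The median of the members was 0.28, beside −0.01 for all genes, and 83 of 85 were above 0. The median SE of a member's difference was 0.12. Members were close to each other in size: of the 85, 75 lay within 0.1 of their median, and their interquartile range was 0.08. For 76 members both BT549 pairs had a higher Acetalax difference than both MDA-MB468 pairs, a pattern found in 25.7% of all genes; RPL36A was the only member with the reverse, found in 25.9% of genes. Under total count scaling the median was 0.22, 81 members were above 0, and 24 had an unadjusted p under 0.05. That last count was 11 with DESeq2 size factors, 0 with DESeq2, 0 without either MDA-MB468 pair and 7 without the BT549 CE pair, whereas the median stayed between 0.22 and 0.32.

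RPS12 had the largest such difference. It read 937 and 830 CPM in the MDA-MB468 parental pair (control, then Acetalax), 741 and 692 CPM in the MDA-MB468 CE pair, 684 and 790 CPM in the BT549 parental pair and 603 and 667 CPM in the BT549 CE pair. Each MDA-MB468 pair went down and each BT549 pair went up, although the ranges of the lines overlap. The difference between the responses was 0.37 ± 0.11 (SE, 2 pairs per line, edgeR adjusted p = 0.145, the smallest of any member).

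RPL39, a small protein at the exit of the large subunit's tunnel, behaved alike, with 242 and 224, then 239 and 223 CPM in MDA-MB468, and 253 and 298, then 236 and 262 CPM in BT549. RPL37A, a zinc-binding large subunit protein, went from 713 to 643 and from 722 to 686 CPM in MDA-MB468 and from 414 to 483 and from 450 to 504 CPM in BT549. In both genes all 4 pairs followed the line. The response differences were 0.35 ± 0.13 for RPL39, 0.36 ± 0.11 for RPL37A, 0.36 ± 0.11 for RPL37 and 0.35 ± 0.13 for RPS28, with edgeR adjusted p between 0.162 and 0.239.

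Against these stood RPL36A, at 10.3 and 11.2, then 10.8 and 15.1 CPM in MDA-MB468 and 9.70 and 8.35, then 6.86 and 6.51 CPM in BT549. Its response difference was −0.39 ± 0.26 (edgeR adjusted p = 0.491), its count was low, and its row overlaps a read-through gene. RPL36AL, the retained copy that encodes nearly the same protein, stood between 97.7 and 141 CPM and had a response difference of 0.04 ± 0.16.

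Members known for particular roles showed the same split by line. RPL5 and RPL11, which bind MDM2 when ribosome assembly is disturbed, had Acetalax differences of −0.06 and −0.06 in MDA-MB468 parental cells, 0.05 and 0.02 in CE cells of the same line, and in BT549 0.17 and 0.26 (parental) and 0.34 and 0.36 (CE). The stalk proteins RPLP0, RPLP1 and RPLP2, which recruit elongation factors, had differences between −0.16 and 0.00 in the MDA-MB468 pairs and between 0.16 and 0.31 in the BT549 pairs. RPS6, the substrate of the S6 kinases, had −0.07 and 0.03 in MDA-MB468 and 0.17 and 0.29 in BT549. RPSA, also known as a laminin receptor, had −0.02, 0.05, 0.16 and 0.27 in that order. In each of these genes both BT549 values were above both MDA-MB468 values.

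Members with and without the start motif were set side by side, with no test. The 55 with a pyrimidine run at or near the start had a median response difference of 0.29, the 13 without one 0.23, and the 17 not matched to a start had 0.28. The ranges overlapped widely, from −0.39 to 0.37 for members with a run and from −0.29 to 0.29 for those without.

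Other genes of the ribosome's life were compared as lists. Ribosome biogenesis factors, which make and process ribosomal RNA in the nucleolus, were the first of them: over the 4 backgrounds 9 of 67 tested rose after Acetalax and none fell (5.0% of all genes called), with a median of 0.30. PPAN (1.00 ± 0.17), RRP12 (0.85 ± 0.17) and NOC3L (0.84 ± 0.17) rose the most, with edgeR adjusted p between 0.0361 and 0.0431. Without the MDA-MB468 parental pair no gene of any kind passed in this comparison, so every call in this paragraph rests on that pair. The list medians of the biogenesis factors were 0.27 and 0.44 in the MDA-MB468 parental and CE pairs and 0.17 and 0.49 in the BT549 pairs. Among assembly chaperones and late small subunit factors, 1 of 22 rose, BYSL (0.76 ± 0.16, edgeR adjusted p = 0.0451). Of 12 long noncoding hosts of small nucleolar RNAs, SNHG15 and SNHG3 rose. Of 30 genes of mTOR and translation control 2 rose (MYC and LARP4) and 3 fell (MYCN, DDIT4, which inhibits mTOR, and EEF2K). MYCN differed by −10.9 ± 0.68 between BT549 and MDA-MB468, so nearly all of its counts came from MDA-MB468. Of 8 genes of the ribosomal protein and MDM2 pathway CDKN1A rose by 1.54 ± 0.31. Of 74 mitochondrial ribosomal protein genes MRPS24 rose. No gene passed among 25 translation factors with a TOP motif or among 29 other initiation factors.

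In the difference between the lines' responses none of these lists held a call. The TOP translation factors had the list median closest to that of the members, with 24 of 25 above 0, a median of 0.23 and 9 higher at an unadjusted p under 0.05 (6.9% of all genes). The medians were 0.20 for small nucleolar RNA hosts, 0.15 for mTOR and translation control, 0.13 for the MDM2 pathway and 0.11 for mitochondrial ribosomal proteins. They were 0.07 for other initiation factors, 0.05 for ribosome biogenesis factors and −0.03 for chaperones and late factors. Comparisons in this paragraph and the last share libraries with those above.

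A second question is how the lines differ in ribosomal protein mRNA. Between BT549 and MDA-MB468, over the 4 matched conditions, 42 of 85 members passed the threshold, 31 higher and 11 lower in BT549, where 56.8% of all genes passed, 27.3% higher and 29.5% lower. The share called was thus 49.4% for the members, and their median was 0.17 beside −0.02 for all genes. With total count scaling, which moved the median of all genes to −0.18, the split was 23 higher and 20 lower. Without the parental control pair 26 members passed (23 higher, 3 lower), without the parental Acetalax pair 26 (20 higher, 6 lower), and without the CE control pair 28 (24 higher, 4 lower). In 35 members all 4 BT549 libraries lay above all 4 MDA-MB468 libraries (25.7% of all genes) and in 16 all 4 lay below (28.2%).

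**Figure D3:**
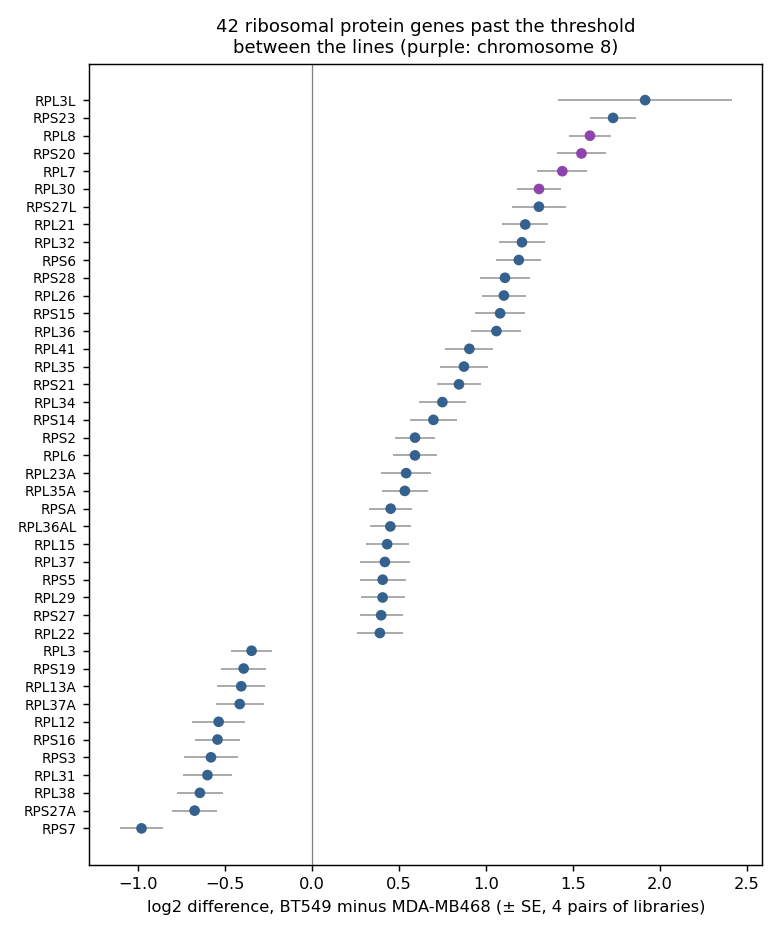
Log2 difference between BT549 and MDA-MB468 with its SE (4 matched pairs of libraries) for the 42 ribosomal protein genes past the threshold, with the 4 genes on chromosome 8 in purple. Differences run from −0.98 for RPS7 to 1.73 for RPS23; RPL3L, drawn at the top, passed the expression filter only through BT549, where it is high.

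RPS23, a protein of the decoding centre, was at 64.6, 57.2, 55.7 and 52.7 CPM in MDA-MB468 and at 187, 203, 142 and 154 CPM in BT549. The lines did not overlap, and the difference was 1.73 ± 0.13 (edgeR adjusted p = 0.000145). RPL8 was at 837 to 892 CPM in MDA-MB468 and 2123 to 2557 CPM in BT549. RPS20 (1.55 ± 0.14), RPL7 (1.44 ± 0.14) and RPL30 (1.30 ± 0.13) were also higher, and with RPL8 (1.60 ± 0.12) they are the 4 members on chromosome 8. All 4 passed. The other genes tested on that chromosome had a median difference of 1.08, and 58.8% of them were called higher. Together these 4 genes took 0.190% to 0.206% of counts in MDA-MB468 and 0.438% to 0.588% in BT549.

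RPL21 (1.23 ± 0.13), RPL32 (1.21 ± 0.13) and RPS6 (1.19 ± 0.13) were further genes above MDA-MB468, RPS6 with 795 to 911 CPM there and 1379 to 2075 CPM in BT549. RPL3L had a difference of 1.91 ± 0.50 on 2 to 6 counts per library in MDA-MB468 and 11 to 18 in BT549. With counts this low it could pass the expression filter only through BT549, where it is high, so its place among the 31 is a description and not support for a difference. On the other side, RPS7 was at 808 to 887 CPM in MDA-MB468 and 359 to 412 CPM in BT549, a difference of −0.98 ± 0.13 (edgeR adjusted p = 0.00101). RPS27A, made as a fusion with ubiquitin (−0.67 ± 0.13), RPL38 (−0.64 ± 0.13), RPL31 (−0.60 ± 0.14), RPS3 (−0.58 ± 0.15), RPS16 (−0.54 ± 0.13), RPL12 (−0.54 ± 0.15) and RPL37A (−0.42 ± 0.14) were lower too. The 4 members on chromosome 2 were all lower in BT549, and the other genes tested there had a median of −0.65.

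Relatives with a more restricted expression were compared with their partners as a percent of the partner's FPKM (canonical transcript lengths). RPL22L1 stood at 30.3% to 43.8% of RPL22 in MDA-MB468 and at 17.9% to 26.5% in BT549, while RPL22 itself was higher in BT549 by 0.39 ± 0.13 (edgeR adjusted p = 0.0436) and RPL22L1 differed by −0.40 ± 0.16 (edgeR adjusted p = 0.0751). The ranges of the ratio did not overlap. RPL26L1 was at 94.2% to 119% of RPL26 in MDA-MB468 and 55.1% to 61.5% in BT549. Here RPL26 was higher in BT549 by 1.10 ± 0.13 and RPL26L1 differed by 0.22 ± 0.15 (edgeR adjusted p = 0.242). RPL7L1 was at 11.5% to 14.5% of RPL7 in MDA-MB468 and 5.07% to 5.95% in BT549, and RPL7 lies in the chromosome 8 group.

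RPS27L, a p53 target, was at 21.5 to 27.1 CPM in MDA-MB468 and 44.8 to 65.7 CPM in BT549, a difference of 1.30 ± 0.16 (edgeR adjusted p = 0.000763). It made up 0.348% to 0.386% of the RPS27 level in MDA-MB468 and 0.559% to 0.886% in BT549. RPL39L stood at 3.19% to 4.86% of RPL39 in MDA-MB468 and 3.65% to 5.48% in BT549, so its ranges overlapped. RPL36AL exceeded RPL36A, at 833% to 1123% of its level in MDA-MB468 and 1525% to 2069% in BT549. RPL3L and RPL10L were at most 0.0271% and 0.0729% of RPL3 and RPL10 in any library, and RPS17L stood between 0.184 and 0.350 CPM. Pairs this close in sequence lose reads that fit both, so a ratio holds only between libraries, not as a true proportion.

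The third question concerns chronic exposure. Over the 4 CE and parental pairs no member passed the threshold, with 0.117% of all genes called (0.0609% higher and 0.0559% lower) and none of the members by DESeq2. At an unadjusted p under 0.05 there were 6 members, 1 higher and 5 lower, against 14.8% of genes (8.05% higher and 6.75% lower). The median was −0.01 for the members and −0.01 for all genes. Ranked as above by the smallest pair difference, the leading members were RPS27L, RPS28, RPS27, RPL21 and RPS21 upward (0.07 to 0.33) and RPS10, RPS23, RPL24, RPS12 and RPS6 downward (−0.46 to −0.23). Their edgeR adjusted p lay between 0.307 and 0.748. The lines were then taken one at a time, which leaves 2 pairs per line that share their cell populations, and an estimate of the spread common to both lines.

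In MDA-MB468, 2 of 85 members passed, both lower in CE cells, where 4.42% of all genes passed (1.88% higher and 2.53% lower). At an unadjusted p under 0.05 there were 4 members, 1 higher and 3 lower, against 8.28% and 8.13% of all genes. RPS18 was at 1503 and 1328 CPM in parental cells (control, then Acetalax) and at 1163 and 1076 CPM in CE cells. Its difference was −0.38 ± 0.07 (SE, 2 pairs, edgeR adjusted p = 0.0256). Each of its CE libraries was below each parental one, a pattern found in 16.4% of all genes and 44.7% of the members. No member passed with DESeq2, with DESeq2 size factors or without either pair of MDA-MB468 libraries, whereas 2 members passed with total count scaling, so the calls need all 4 libraries and depend on the scaling. The epithelial markers summed to 6364 and 5563 CPM in parental and 7963 and 8210 CPM in CE cells of this line, but the list split. KRT8 (2276 to 3218 CPM in the untreated pair), KRT18, KRT19, CDH1 and CLDN4 were higher in both pairs. CLDN7 was lower in both, and EPCAM and ESRP1 went each way. The mesenchymal markers summed to 57.4 and 80.5 CPM in parental and 28.1 and 34.0 CPM in CE cells. The part of these markers was not tested. RPS12 stood just outside at −0.34 ± 0.08 (edgeR adjusted p = 0.0510). RPS12 and RPS18 are on chromosome 6, where all 5 members were lower, with a median of −0.29, beside −0.26 for the 953 other genes tested there. Of those others 10.4% were called lower and 0.315% higher.

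In BT549 CE cells the members spread out. There 17 of 85 passed, 11 higher and 6 lower, or 20% against 22.4% of all genes (12.3% higher, 10.1% lower). Cell type markers moved between the same libraries. The 8 epithelial markers summed to 12.2 and 9.04 CPM in parental cells and to 93.2 and 56.1 CPM in CE cells. None was at 0, KRT8 and KRT18 made up most of the CE sums, and ESRP1 was lower in both pairs. The 8 mesenchymal markers summed to 5725 and 5898 CPM and then to 10911 and 9867 CPM, but the list split. SPARC (439 to 3447 CPM in the untreated pair), COL1A2 (1045 to 4505 CPM) and ZEB2 were higher in both pairs. VIM (1327 to 864 CPM), FN1 (1629 to 593 CPM), CDH2 and ZEB1 were lower in both, and COL1A1 went each way. The part of these markers in the members' differences was not tested. The median of the members was 0.05, beside −0.02 for all genes, and the interquartile range of their differences was 0.38, against 0.11 in MDA-MB468. Scaling by total counts shifted the median of all genes to −0.12 and gave 24 members, 7 higher and 17 lower. Without the control pair of BT549 11 members passed, 10 higher and 1 lower, and without the Acetalax pair 11 passed, 5 higher and 6 lower.

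**Figure D4:**
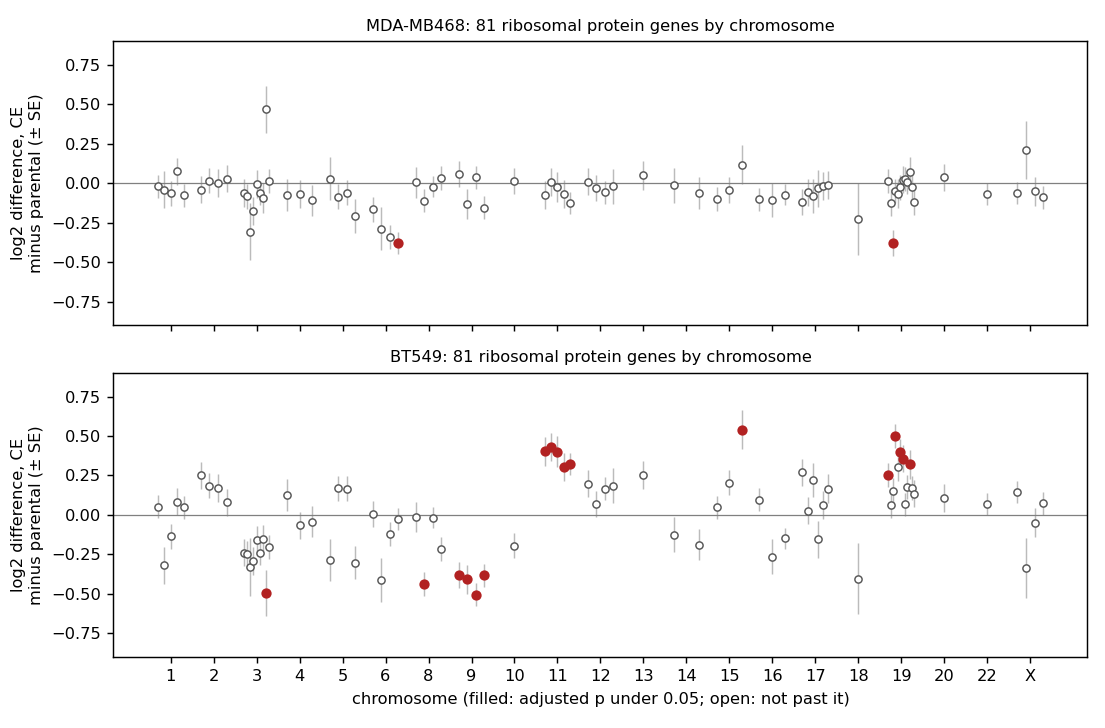
Log2 difference between CE and parental cells with its SE for the 81 ribosomal protein genes with a mean of at least 1 FPKM, placed by chromosome, in MDA-MB468 (top) and BT549 (bottom). Filled points passed an adjusted p of 0.05: 2 genes in MDA-MB468 and 17 in BT549, where all 5 genes on chromosome 11 are higher and all 4 on chromosome 9 lower.

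Most of the calls lay on 3 chromosomes. All 5 members on chromosome 11 were higher in BT549 CE cells: RPLP2 (0.43 ± 0.09), RPL27A (0.40 ± 0.09), RPS13 (0.40 ± 0.10), RPS3 (0.32 ± 0.07) and RPS25 (0.30 ± 0.09), with edgeR adjusted p between 0.0111 and 0.0428. All 4 members on chromosome 9 were lower: RPL7A (−0.51 ± 0.07), RPL35 (−0.41 ± 0.09), RPS6 (−0.38 ± 0.07) and RPL12 (−0.38 ± 0.08), with edgeR adjusted p between 0.00221 and 0.0172. The starts of 6 of these 9 genes are printed above, and every one carries a pyrimidine run, as do 55 of the 68 members matched to a start. RPS15 and RPS27L, which also passed in this comparison, have none near the start. Other genes on the same chromosomes went along: the median of 1059 others on chromosome 11 was 0.31, with 26.6% called higher and 3.02% lower, and the median of 814 others on chromosome 9 was −0.48, with 6.63% called higher and 32.2% lower.

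RPL7A, a large subunit protein, read 1243 and 1325 CPM in BT549 parental cells and 830 and 866 CPM in CE cells. RPS6 read 1945 and 2075 CPM in parental and 1379 and 1512 CPM in CE cells. RPLP2 went the other way, from 266 and 310 CPM to 344 and 384 CPM. In all 3 genes the CE libraries did not overlap the parental ones. Both BT549 CE libraries lay below both parental ones in 26.1% of all genes and above them in 22.7%. Each pattern held for 18.8% of the members. On chromosome 19 all 12 members were above 0 and 5 passed, among them RPL28 (0.50 ± 0.08), RPS15 (0.36 ± 0.09), RPS28 (0.32 ± 0.09) and RPL13A (0.25 ± 0.07). Here the other genes of the chromosome had a median of 0.02. RPL28 was at 590 and 658 CPM in parental and 810 and 843 CPM in CE cells.

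The remaining calls were single genes. RPS27L rose by 0.54 ± 0.12 (edgeR adjusted p = 0.0175), from 47.4 and 44.8 CPM to 65.7 and 60.2 CPM. RPL39L, on chromosome 3, fell by 0.49 on the log2 scale (SE 0.15, edgeR adjusted p = 0.0482), from 25.9 and 29.1 CPM to 18.8 and 17.9 CPM. RPL7, on chromosome 8, read 1614 and 1763 CPM in parental and 1095 and 1245 CPM in CE cells, and differed by −0.44 ± 0.08 (edgeR adjusted p = 0.00530).

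Because position recurred, each member was set beside the other tested genes within 5 megabases of it, a measure chosen after the values by chromosome had been seen. Between 26 and 297 genes lay in such a window, with a median of 90. For the line difference, the member's value and the median of its neighbours had a Pearson r of 0.78 and a Spearman rho of 0.72 over the 81 members with a mean of at least 1 FPKM. Without chromosome 8 the values were 0.73 and 0.68 over 77 members. For the CE difference in BT549 they were 0.67 and 0.68, and in MDA-MB468 0.48 and 0.26. For the difference in the Acetalax response they were 0.09 and −0.07. There the members had an interquartile range of 0.08, below their median SE of 0.12. Their neighbours' medians had one of 0.10, against 0.59 for the line difference and 0.27 for CE in BT549. With so little spread, the low correlation cannot tell whether position plays a part. All these correlations are descriptions across genes that share libraries, and members that lie close together share neighbours. Of the 17 members called in BT549 CE cells, 12 had neighbours whose median was more than 0.1 from 0 in the same direction and none in the opposite one. Of the 42 called between the lines, 24 of the 31 higher and 9 of the 11 lower ones did. The neighbours' median was more than 0.1 from 0 in the opposite direction for 2 of the higher ones, RPS27 and RPSA, and for 1 of the lower ones, RPL12. By sign alone, called or not, 64 of 85 members went with their neighbours' median for CE in BT549. Between the lines 59 of 85 did. No such count was made over all genes, so agreement with neighbours cannot be called particular to the members.

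RPL12 went from between 512 and 537 CPM to between 364 and 392 CPM in BT549, and 59 of 137 genes around it were called lower and 11 higher. Around RPLP2, 38 of 96 were called higher and 3 lower. Around RPS27L and RPL28 the neighbours' medians were 0.00, and 14 of 92 and 15 of 238 neighbours passed in either direction.

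**Figure D5:**
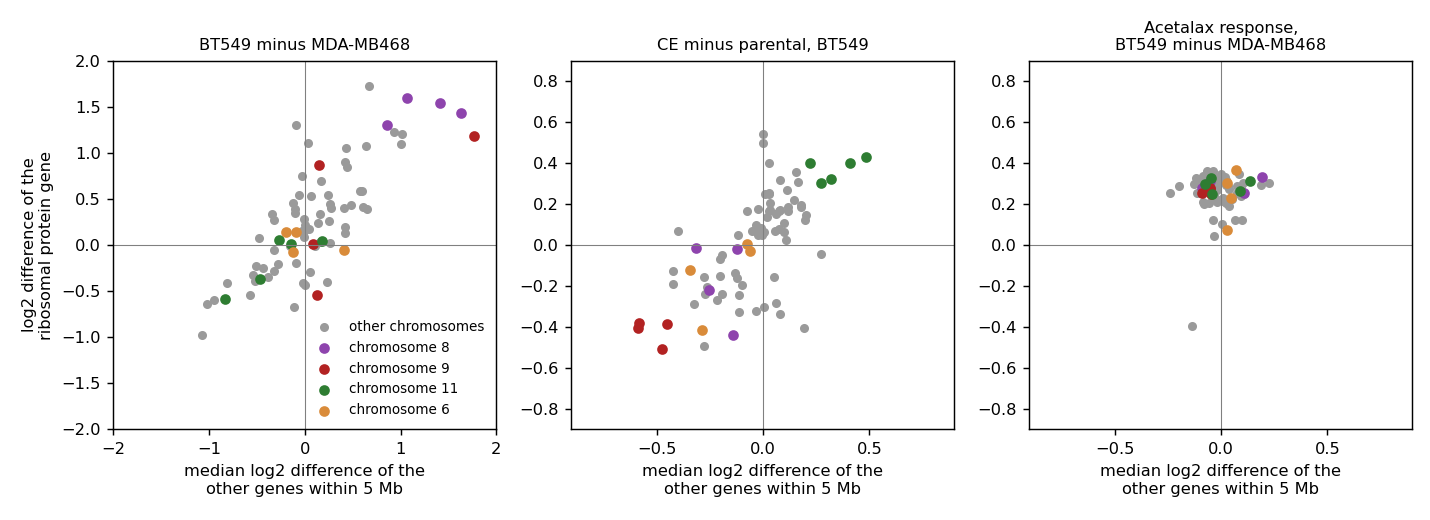
Log2 difference of each of 81 ribosomal protein genes (vertical) against the median log2 difference of the other tested genes within 5 megabases (horizontal), for the line comparison, the CE comparison in BT549, and the gap between the Acetalax responses of the lines. Points rise from left to right in the first 2 panels (Pearson r of 0.78 and 0.67). In the last they cluster near 0.28 (r of 0.09), with little spread in the members or their neighbours.

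The difference between the lines in the CE effect was itself tested, and 8 of 85 members passed (12.2% of all genes, 7.3% higher and 4.91% lower). Of these, 5 were higher in BT549 than in MDA-MB468, among them RPL28 (0.55 ± 0.11), RPL27A (0.47 ± 0.13) and RPS3 (0.45 ± 0.10). The 3 lower ones were RPL39L (−0.96 ± 0.21), RPL7A (−0.54 ± 0.10) and RPL12 (−0.44 ± 0.12). The edgeR adjusted p of the named genes lay between 0.0125 and 0.0484. RPL39L, a relative of RPL39 best known from testis, was at 14.4 and 14.6 CPM in MDA-MB468 parental and 21.0 and 20.3 CPM in MDA-MB468 CE cells, so it was higher in both CE libraries there and lower in both in BT549. Total count scaling gave 2 higher and 6 lower, and no member passed without either MDA-MB468 pair.

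The lists of other ribosome genes also had calls in BT549 CE cells. Of 67 biogenesis factors 11 were lower and none higher, or 16.4% against 22.4% of all genes (12.3% higher, 10.1% lower). The lowest were RRS1 (−0.77 ± 0.19), POLR1E (−0.65 ± 0.13) and PES1 (−0.65 ± 0.13). Of 25 TOP translation factors 4 were higher, among them EIF3K (0.45 ± 0.10), FAU (0.44 ± 0.10), whose product includes a small subunit protein, and TPT1 (0.44 ± 0.09), and 3 were lower: PABPC1 (−0.70 ± 0.06), EIF3L (−0.56 ± 0.10) and IPO5 (−0.51 ± 0.08). Mitochondrial ribosomal proteins had 3 higher, led by MRPL17 (0.98 ± 0.15), and 6 lower, led by MRPS2 (−0.96 ± 0.13). Of the 22 chaperones and late factors 3 were lower, of the 29 other initiation factors 6 were lower, and of the 12 small nucleolar RNA hosts 3 were lower. The mTOR and translation control list had 4 higher and 2 lower of 30, and none of the 8 genes of the MDM2 pathway passed. The share called was 28% for TOP translation factors, 12.2% for mitochondrial ribosomal proteins and 13.6% for chaperones and late factors. It was 20.7% for other initiation factors, 25% for small nucleolar RNA hosts and 20% for mTOR and translation control. In MDA-MB468 CE cells these lists held 4 calls in all, each lower: MYCN, SESN3, EIF3G and MRPL18. No list there had more than 6.67% called, where 4.42% of all genes were (1.88% higher, 2.53% lower).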

How the data were processed

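Poly(A)-selected, stranded libraries were sequenced as paired ends. The authors aligned reads to hg19 with STAR (2.7.11b in the submitters' processing notes) and deposited raw counts of uniquely mapped reads per gene; the annotation and the strand column are not given in the sources used here. Here, 1392 repeated identifiers were kept once, leaving 55679, and edgeR 4.0.16 (R 4.3.3) tested the 19693 genes that passed its expression filter, with TMM scaling, quasi-likelihood tests and Benjamini-Hochberg adjustment over all genes. Each fit paired libraries by the factors not compared; every condition had 1 library. DESeq2 1.42.0 and other scalings, filters and left-out pairs were alternatives, and the steps were tested on simulated data. Pair differences used log2 CPM with 0.5 added to each count. FPKM used exon lengths from a GENCODE annotation lifted to hg19. Members and lists were chosen with earlier results of these data known. Named members were, per comparison, up to 8 called in each direction or, with none called, the 5 with the largest smaller difference over the pairs, plus relatives, stalk proteins, RPL5, RPL11, RPS6, RPSA and the 5 highest and lowest by FPKM; some of them are not reported here.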

Additional observations from a re-analysis of the deposited data

Results flagged for a closer look

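The CE effect differed between the lines, by the test of the difference itself, for 8 of 85 members (9.41%), against 12.2% of all genes. Of these 8 members, 6 are given here. Relative to MDA-MB468, the CE minus parental difference in BT549 was lower for RPL39L by −0.96, for RPL7A by −0.54 and for RPL12 by −0.44, and higher for RPS3 by 0.45, for RPL27A by 0.47 and for RPL28 by 0.55 (log2 scale, edgeR adjusted p between 0.0125 and 0.0484, 2 pairs per line). RPL7A and RPL12 are on chromosome 9, RPS3 and RPL27A on chromosome 11. No member passed without either MDA-MB468 pair.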

How the results depend on the processing

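The labels name no replicate and every condition had 1 library, so no pairing by replicate was possible. Libraries were instead matched by line, state and treatment in the fits reported. The 0 calls among the members stayed 0 under every alternative run for Acetalax over 4 backgrounds, in parental cells, in CE cells, for both response differences and for CE over 4 pairs. CE in MDA-MB468 gave 0 members with DESeq2 size factors, 0 with DESeq2 and 0 to 0 when a pair was left out. CE in BT549 gave 11 to 11 with a pair left out, the line comparison 26 to 33, and the CE difference between the lines 5 with DESeq2 size factors, 5 with DESeq2 and 0 to 11 with a pair left out. The cause was not tested, beyond there being fewer libraries. Members' medians relative to all genes moved past the spread between pairs for CE in BT549 with DESeq2 (0.25, against 0.07 as reported) and with pairs left out for the response difference between CE and parental cells (−0.0850 to 0.270) and the CE difference between the lines (0.0277 to 0.231). DESeq2 was run without the expression filter, on 37154 genes with a median of −0.15, against −0.02 over 19693 genes as reported. The members' own median was 0.10 there, against 0.05. The change in the members' share after Acetalax, against nuclear protein-coding counts, was −0.593 points for the MDA-MB468 parental pair, 0.445 for the BT549 parental pair and 0.371 for the BT549 CE pair; with processed copies it was 0.410 and 0.406 in BT549, and without chromosome 8 (chosen after seeing the data) 0.347 and 0.351. The median log2(FPKM + 1), 7.02, was 7.75 with the longest and 9.03 with the canonical transcript. Over the named members' calls, 315 repeats kept their side of the threshold, 69 did not pass it, and none changed sign.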
